A study of Mus musculus with 6 samples.

Results

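The transcripts described here lie in the major histocompatibility complex (MHC) of the mouse, taken as 34 to 36.5 Mb of chromosome 17. Members were chosen by position. Agilent places 185 probes there on build mm9, and 110 further probes share a transcript accession with one of these. The other 68 are probes for circular RNAs (circRNAs) whose names hold positions between the same coordinates. Those names are read on build GRCm38, where the coordinates mark a shifted stretch of the chromosome. Members are 363 of the 150305 probes on the array. The linear probes cover 132 genes, and 335 members (269 linear, 66 circRNA) reached well above background on every array of 1 group or both, the condition for a fit. The interval was proposed with the knockout minus wild type values of these arrays already known, so every difference below is a description and carries no p-value.

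RNA from prefrontal cortex of male mice of the outbred ICR stock, 3 to 4 months old, was measured on 6 one-colour arrays: 3 of wild type and 3 of Nrf2 knockout samples. Nrf2, made from the gene Nfe2l2, switches on genes that protect cells from oxidants. Neither the deleted piece of Nfe2l2, the history of the knockout stock nor separate animals per sample are named in the labels, so the spread between samples may be technical. The 3 wild type arrays and knockout 1 were on slide 1 and knockouts 2 and 3 on slide 2, so the main differences are also given with slide as a block, where the estimate comes from knockout 1 against the wild types of slide 1.

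The MHC holds the genes by which cells show peptides to T cells. Class I molecules (H2-K1, H2-L and the H2-Q and H2-T genes) carry peptides that the immunoproteasome cuts and the TAP transporter pumps into the endoplasmic reticulum, while class II molecules (H2-Aa, H2-Ab1) carry peptides from engulfed material and are made by few cells of a healthy brain, such as macrophages at its borders. Complement and cytokine genes lie between them, and many neighbours have no immune role, among them the ribosomal protein gene Rps18 and the tubulin gene Tubb5. Genes of the interval are inherited together and differ strongly between haplotypes.

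Levels are processed signals on the log2 scale, from which the 75th percentile of the array was subtracted, so that 0 is that percentile. The targeted gene checked the labels: the brightest Nfe2l2 probe by wild type mean stood at 1.22, 1.26 and 1.21 in wild type and was not well above background in any knockout. Another of its 3 probes was well above background in all knockouts, at −3.74, −3.79 and −3.46, but lower there by −4.08 (SE 0.12). Neuron markers were bright on all arrays, with Snap25 between 9.12 and 9.27. A limma fit over 105930 probes called 10 at an adjusted p under 0.05, or 0.00944% of those tested.

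A few member probes are shown first because the same gene, or the same array, is read through them below. They are Agilent's own probes inside H2-Aa and Psmb8, which were lower in the knockout on every probe tested, and inside C4b, Bag6 and Hspa1b. Positions are on mm9, and the exon structure of that build was not used here. The H2-Aa probes lie at chr17:34421285-34421344 and chr17:34420627-34420686, the Psmb8 probe at chr17:34337771-34337830 and the C4b probe at chr17:34866361-34866420. The first Bag6 probe spans chr17:35278544-35278809 and the other chr17:35283830-35284126, both wider than the 60 bases of a probe. The Hspa1b probe lies at chr17:35095608-35095667.
H2-Aa, first probe: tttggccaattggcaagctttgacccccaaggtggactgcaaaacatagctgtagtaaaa
H2-Aa, other probe: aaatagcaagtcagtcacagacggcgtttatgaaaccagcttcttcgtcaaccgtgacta
Psmb8: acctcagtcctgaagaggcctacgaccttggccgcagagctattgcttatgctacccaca
C4b: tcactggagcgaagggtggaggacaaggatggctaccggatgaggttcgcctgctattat
Bag6, first probe: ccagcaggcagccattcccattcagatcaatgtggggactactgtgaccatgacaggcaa
Bag6, other probe: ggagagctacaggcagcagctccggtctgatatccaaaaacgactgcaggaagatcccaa
Hspa1b: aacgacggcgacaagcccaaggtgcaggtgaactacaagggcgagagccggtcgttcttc

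Class I genes are close copies, and their probes can share sequence. Among members, 21 pairs of probes with different names had 20 letters in common, 7 of them with a class I probe and the others mainly circRNA probes with their host gene or each other. The example below sets a probe of H2-K1 (chr17:34136288-34136347, mm9) beside one of H2-Q10 (chr17:35607907-35607966, mm9) and one for a circRNA named chr17:35321430-35380545 on the plus strand (read as GRCm38). Capitals mark the 20 letters that all 3 hold. Values of single class I genes are therefore uncertain, since a probe can also read a paralog.
H2-K1: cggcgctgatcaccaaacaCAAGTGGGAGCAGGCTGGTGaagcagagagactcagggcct
H2-Q10: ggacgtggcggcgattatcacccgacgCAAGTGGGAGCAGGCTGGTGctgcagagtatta
circRNA: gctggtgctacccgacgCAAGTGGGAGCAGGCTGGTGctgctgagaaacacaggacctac

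Of the 47 immune genes with a member probe, 42 were tested, and 34 of them had a lower knockout mean, with a median difference of −0.18 (log2). Of 80 non-immune neighbours 29 were below 0, with a median of 0.042, and over 17972 genes the median was −0.0052, with 51.3% below 0. With slide as a block the medians were −0.13 for the immune genes (32 below 0), −0.0086 for the neighbours (41 of 79 with a value) and −0.058 for all genes (65.5% below 0). The 5 immune genes with the lowest differences after Tnf were H2-Aa, H2-Ab1, C4b, Cfb and Psmb8, which serve class II, complement and peptide cutting. Without wild type 1 the immune median was −0.32, and without wild type 2 it was −0.11.

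No member passed the adjusted threshold in limma (0 of 335). At an unadjusted p under 0.05, 44 members stood (13.1%), beside 15.1% of all probes tested, and nothing is read from that share because the interval was chosen on this contrast. Among the 88 probes of immune genes, 24 had an unadjusted p under 0.05 with a lower knockout and 0 with a higher one, beside 8.94% and 6.11% of all probes. In 23 of these 88 every knockout lay below every wild type, beside 10.4% of all probes, and in 0 every knockout lay above, beside 11.1%. Of the 181 other linear probes 12 lay wholly below and 20 wholly above. The immune list was also drawn up with earlier results of these data known. It holds several probes of many genes and class I probes that can read a paralog. Nothing is therefore read from its counts either. Without knockout 1, which leaves knockouts of slide 2 only, 24 members passed the adjusted threshold (7.16%), beside 12.8% of all probes.

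**Figure D1:**
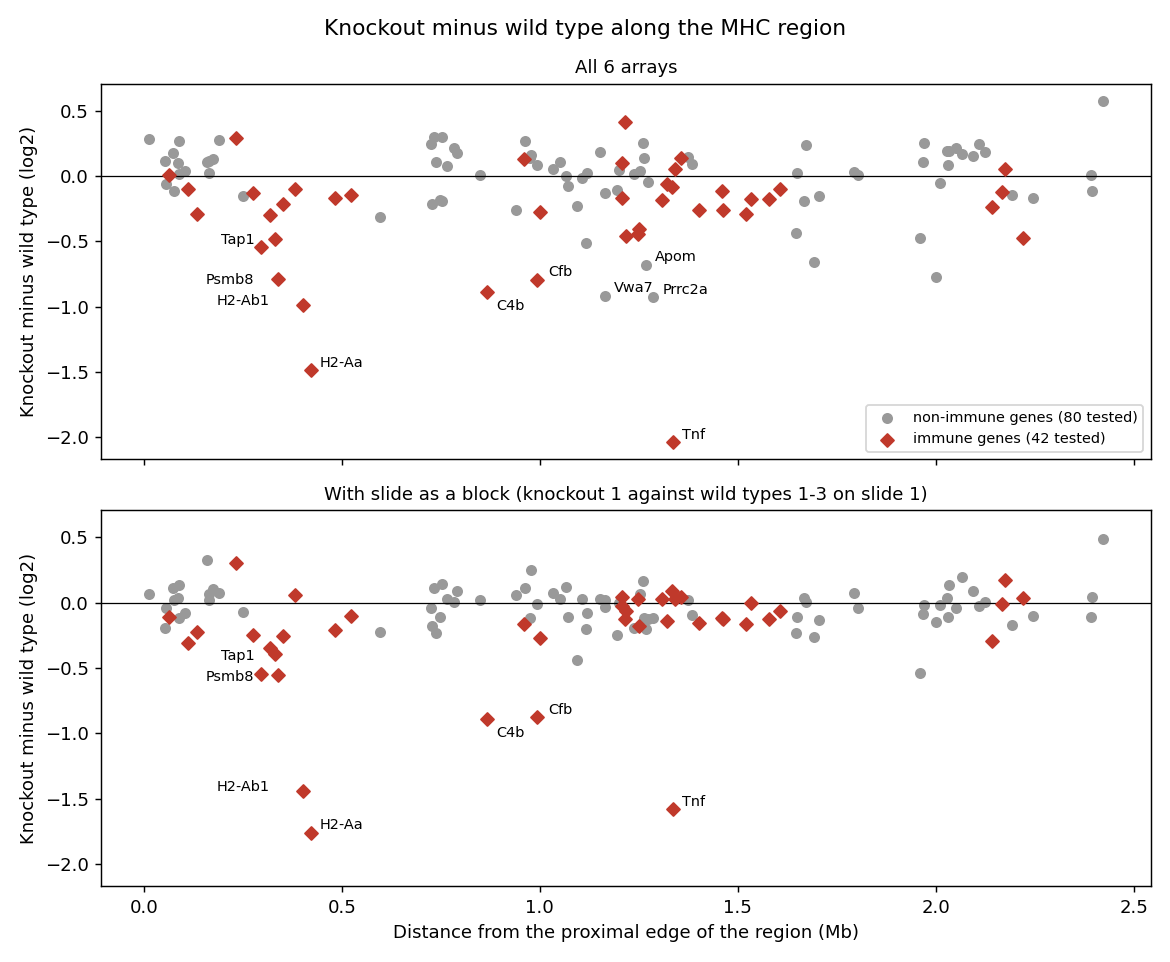
Difference of each tested gene (knockout minus wild type, log2, 1 probe per gene) against the distance of its first placed probe from the proximal edge of the interval (Mb), with all 6 arrays (top) and with slide as a block (bottom). Red diamonds are 42 immune genes and grey circles 80 non-immune neighbours. H2-Aa, H2-Ab1, C4b, Cfb and Psmb8 stay low in both panels, while Prrc2a, Vwa7 and Apom are low only in the upper one.

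Of 13 class I genes tested, each read on its brightest probe, 12 were below 0, with a median of −0.18. H2-K1, a classical class I heavy chain, stood at 4.13, 4.56 and 4.29 in wild type and at 4.10, 3.93 and 4.07 in the knockout on its brightest probe. All knockouts lay below all wild types, though wild type 1 and knockout 1 were close, and the difference was −0.29 (SE 0.13, −0.23 with the slide block). All 4 H2-K1 probes were below 0. H2-L differed by −0.26 (SE 0.12) and H2-Q4 by −0.29 (SE 0.18), each −0.16 with the block. With each gene read on its brightest probe, the non-classical H2-T22 was the only class I gene above 0. It differed by 0.05 (SE 0.18, 0.17 with the block), and all 4 of its probes were above 0. Probes of some other class I genes did not share a sign. Of 5 H2-Q10 probes 2 were below 0, and of 2 probes each of H2-Q1, H2-T23 and H2-T24 only 1 was. The median over probes was 0.74 for H2-Q10, 0.54 for H2-Q1, 0.01 for H2-T23 and −0.01 for H2-T24. With the slide block the class I median was −0.12, with 11 of 13 below 0.

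The peptide-processing genes were lower on nearly all probes. Psmb8, an immunoproteasome subunit that replaces a constitutive one, stood at 2.57, 2.57 and 2.36 in wild type, against 1.94, 1.62 and 1.57 in the knockouts. The groups did not overlap, and the difference was −0.79 (SE 0.13), or −0.56 with the slide block. The Psmb8 probe printed above gave −0.10, −0.03 and −0.36 against −0.59, −0.58 and −0.54, a difference of −0.41 (SE 0.11), and the third differed by −0.39 (SE 0.12). All 3 probes put every knockout below every wild type, by unequal amounts.

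Tap1, a subunit of the peptide transporter, stood at 1.07, 1.38 and 1.08 in wild type and at 0.78, 0.58 and 0.73 in the knockout, a difference of −0.48 (SE 0.12, −0.40 with the block). Its other probe, near −4 on all arrays, overlapped between groups and differed by −0.20 (SE 0.23). Tap2, the other transporter subunit, differed by −0.22 (SE 0.08, −0.26 with the block) and Psmb9, a further immunoproteasome subunit, by −0.30 (SE 0.12, −0.35 with the block), each without overlap of the groups. Tapbp, the chaperone that joins class I to the transporter, depended on the probe: 0.0067 (SE 0.10) and −0.01 (SE 0.09) on Agilent's probes and −0.58 (SE 0.12) on the third, which were −0.11, −0.10 and −0.39 with the block. The list's median was −0.30, with 4 of 5 below 0, and −0.35 with the block, with 5 of 5 below 0.

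Class II genes held the largest differences among immune genes measured on all arrays. H2-Aa, the α chain of the class II molecule I-A, stood at 2.37, 3.22 and 2.57 in wild type and at 0.96, 1.26 and 1.48 in the knockout, a difference of −1.49 (SE 0.25) and of −1.76 with the block. The highest knockout lay well below the lowest wild type. On the first printed probe the values were −1.99, −1.02 and −1.56 against −2.79, −2.79 and −2.29, and on the other −2.17, −0.17 and −0.79 against −2.66, −2.19 and −1.81. The groups overlapped on that last probe alone, where wild type 1 and knockout 3 crossed.

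H2-Ab1, the β chain of the same molecule, stood at 1.17, 1.06 and 0.24 in wild type and at −0.62, −0.06 and 0.18 in the knockout on its brightest probe. Wild type 3 lay just above knockout 3, and the difference was −0.99 (SE 0.30, −1.44 with the block). Its other probes differed by −0.70 (SE 0.31) and −0.44 (SE 0.50), and on the latter the groups overlapped. H2-DMb1, a chain of the H2-M molecule that loads peptides onto class II, differed by −0.54 (SE 0.17, −0.55 with the block) without overlap. Its partner H2-DMa differed by −0.13 (SE 0.10, −0.25 with the block) with overlap, and by 0.11 on another probe (−0.05 with the block). H2-Oa, part of a modulator of H2-M, was the 1 class II gene above 0, at 0.29 (SE 0.26, 0.31 with the block). Over 8 tested genes of the list the median was −0.16, with 7 below 0, and −0.23 with the block, with 6 below 0. The list includes Btnl1, a butyrophilin-like gene that is no class II chain, and the pseudogene H2-Ea-ps. Both were dim and differed by −0.15 (SE 0.09) and −0.17 (SE 0.11).

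Some class II probes were well above background on 1 array only. A probe for H2-Eb2 stood at −2.87 in knockout 1 and between −7.44 and −7.24 on the other arrays, where it was not well above background. A probe for H2-Ea-ps, a pseudogene, stood at −3.12 in wild type 3 and between −7.47 and −7.26 elsewhere. Neither probe entered the fit, though another H2-Ea-ps probe did and stood between −3.75 and −3.34 on all arrays.

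Complement genes lie between class II and the cytokines. C4b, a component of the classical and lectin pathways, stood at 2.21, 2.84 and 2.37 in wild type and at 1.58, 1.51 and 1.66 in the knockout. The groups did not overlap, and the difference was −0.89 (SE 0.17), and −0.89 (SE 0.26) with the block. The printed C4b probe gave −1.36, −0.46 and −1.10 against −1.81, −1.49 and −1.10 and differed by −0.49 (SE 0.28), with wild type 3 and knockout 3 nearly equal.

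Cfb, factor B of the alternative pathway, stood at −2.30, −1.39 and −1.96 in wild type and at −2.76, −2.89 and −2.38 in the knockout, a difference of −0.79 (SE 0.25, −0.88 with the block). Its lowest wild type and highest knockout were close, and its other probe gave −0.74 (SE 0.27). After normexp background correction with quantile normalisation, the difference of Cfb was −0.39. C2, which forms the classical convertase with C4, differed by −0.28 (SE 0.24, −0.27 with the block) with overlap, and its 3 probes did not share a sign. C4a, a close copy of C4b, gave 0.13 and −0.64 on its probes, or −0.16 and −0.87 with the block. The median of the 4 genes was −0.54, or −0.57 with the block.

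**Figure D2:**
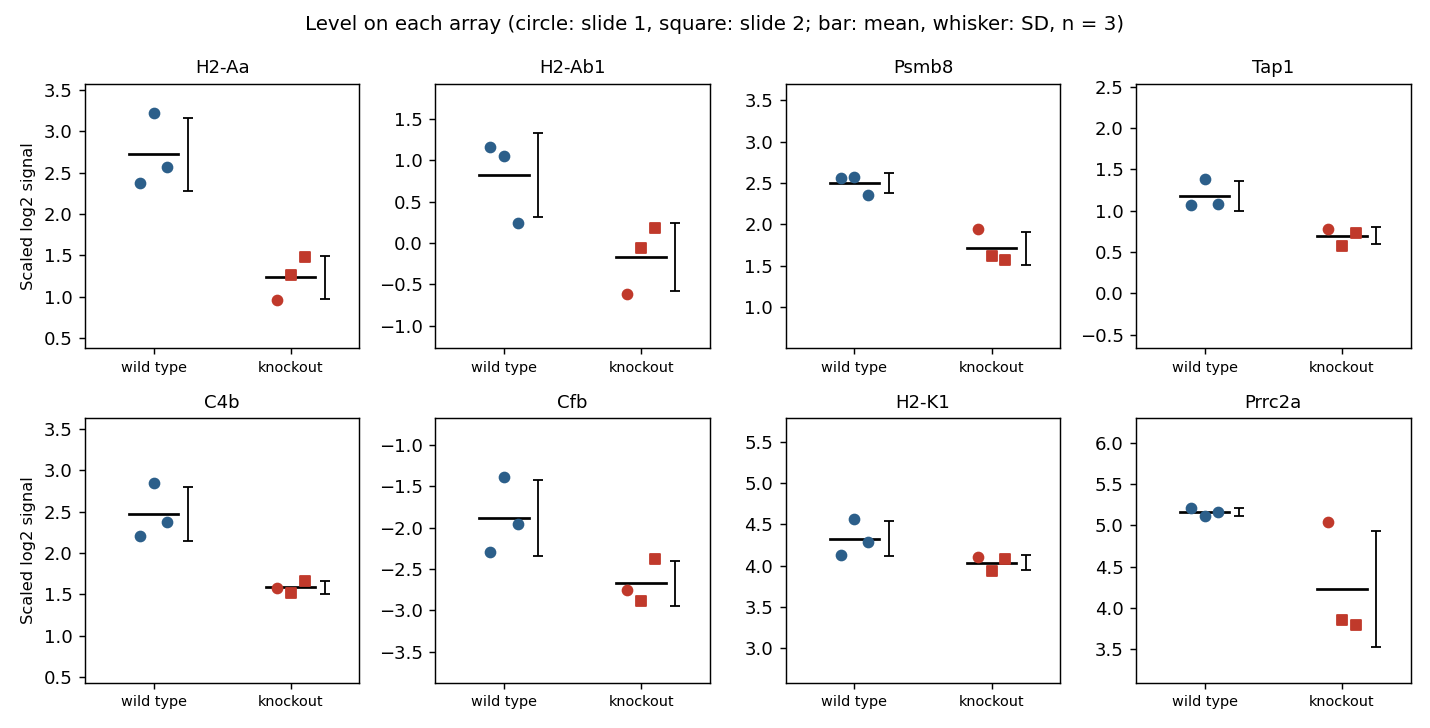
Scaled log2 signal of 8 genes on each array (circles slide 1, squares slide 2), with the mean and SD of 3 arrays per group, each panel 3.2 log2 units tall. In H2-Aa, Psmb8, Tap1 and C4b the knockout of slide 1 lies with those of slide 2 below the wild types, while in Prrc2a knockout 1 (5.04) lies near the wild types and knockouts 2 and 3 (3.85 and 3.80) lie below.

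The list of cytokine and myeloid genes was mixed. It also holds genes that are no cytokines: Nfkbil1 and the Ly6 family genes Ly6g5b, Ly6g5c, Ly6g6c, Ly6g6d, Ly6g6e and Ly6g6f. Of 12 tested, 8 were below 0 with a median of −0.12, and with the block 6 were below 0 with a median of −0.00066. Ly6g5c went from −0.44 to 0.03 with the block, Ly6g6f from −0.46 to −0.07 and Ly6g6e from 0.41 to −0.13. Tnf had the lowest difference of any immune gene, −2.04 (SE 0.80), but its values were −3.77, −3.18 and −0.86 in wild type, against −4.19, −5.61 and −4.13 in the knockouts. It rests on wild type 3, and 1 knockout was not well above background. Without wild type 3 the gene differed by −1.17, and with the block by −1.58. Aif1, which codes for the microglial protein Iba1, differed by −0.19 (SE 0.21), with wild type 1 at 2.49 below the lowest knockout at 2.63. Ltb, lymphotoxin β, differed by −0.08 (SE 0.13). With the block both signs turned, to 0.03 and 0.09.

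The neighbours of the low immune genes named here differed by −0.31 to 0.11 on their brightest probes. The first placed probe of Cfb lies 1.85 kb from that of Nelfe, a subunit of a transcription elongation factor, which differed by 0.08 (SE 0.09), or −0.0086 with the block. C4b lies 17.9 kb from Tnxb, a matrix protein gene, which differed by 0.0095 (SE 0.08, 0.02 with the block), and 74.2 kb from Cyp21a1, a steroid hydroxylase gene, at −0.26 (SE 0.16), which was 0.06 with the block. H2-K1 lies between Vps52 at 0.04 (SE 0.19, −0.08 with the block) and Ring1 at 0.11 (SE 0.34, 0.33 with the block). On this Ring1 probe wild type 1 stood at 1.01, against −0.17 and −0.22 in wild types 2 and 3. The median difference of the 3 Ring1 probes was 0.39. All these neighbours were picked by distance after their values had been seen. Psmb8, H2-Ab1 and H2-Aa have no tested non-immune gene close by: the nearest on either side were Brd2, a bromodomain gene, at −0.16 (SE 0.10, −0.07 with the block) and BC051142 at −0.31 (SE 0.11, −0.22 with the block), at distances from 88.8 to 259 kb. In BC051142 every knockout lay below every wild type.

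Along the interval in steps of 0.25 Mb, the step from 34.25 to 34.5 Mb held 10 immune genes, all below 0, with a median of −0.39 (−0.37 with the block). It held no tested non-immune gene, so position and immune role cannot be told apart there. From 34.75 to 35 Mb, 4 immune genes had a median of −0.54 and 11 neighbours one of 0.14, with block values of −0.57 and 0.05. From 34 to 34.25 Mb the medians were −0.05 for 4 immune genes and 0.11 for 15 neighbours. From 35.5 to 35.75 Mb both kinds of gene stood at −0.17 (4 immune genes, 6 neighbours). From 36 to 36.25 Mb the medians were −0.18 and 0.16, but 0.01 and −0.02 with the block.

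The lowest neighbours moved with the slide. Prrc2a, a large RNA-associated protein gene, stood at 5.21, 5.11 and 5.16 in wild type and at 5.04, 3.85 and 3.80 in the knockout. Knockout 1 lay near the wild types and the arrays of slide 2 far below, so that the difference of −0.93 (SE 0.33) was −0.12 with the block. Another Prrc2a probe differed by 0.11 (SE 0.08). Nrm went from −0.77 to −0.14 with the block, Apom from −0.68 to −0.20, Cdsn from −0.66 to −0.26, Vwa7 from −0.92 to −0.03 and the heat-shock gene Hspa1l from −0.52 to −0.20. The probe of Ly6g6c that Agilent places, on the cytokine list, likewise went from −1.13 to −0.37.

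The highest neighbours were H2-M10.2, a class I-like gene, at 0.58 (SE 0.17, 0.49 with the block), then Pbx2 and Ppt2 at 0.30 each, and Kifc1, Col11a2 and B3galt4 at 0.27 to 0.28. With the block these last 5 were nearer 0, at 0.12 for Pbx2, 0.14 for Ppt2, 0.07 for Kifc1, 0.08 for Col11a2 and 0.13 for B3galt4. H2-M10.2 was dim, at −3.60, −4.03 and −4.18 against −3.45, −3.16 and −3.48, and every knockout lay above every wild type. The 4 brightest neighbours differed little: Rps18 by 0.01 (SE 0.11), Ehmt2, a histone methyltransferase gene, by 0.11 (SE 0.10), Atp6v1g2 by 0.14 (SE 0.10) and Tubb5 by 0.25 (SE 0.13). With the block they were −0.12, 0.03, 0.02 and −0.02.

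The 66 tested circRNAs had a median of 0.09, with 20 below 0, close to the median of 0.08 over all 34552 circRNAs tested. In 3 every knockout lay below every wild type and in 11 (16.7%) above, beside 6.82% and 16.5% of all circRNAs. The lowest was a circRNA of Notch4 (chr17:34575063-34576856, GRCm38) at −0.80, which was 0.07 with the block, and the highest one of Atat1 (chr17:35901552-35909972) at 0.78 (0.22 with the block). Only 1 circRNA lay inside a gene of the immune list: that of Tap2 (chr17:34211870-34212358) differed by −0.17 (SE 0.10, −0.08 with the block), beside −0.22 for the linear Tap2 probe. The linear non-coding probes of 2410017I17Rik and 1110038B12Rik differed by −0.38 (0.02 with the block) and −0.18 (−0.01).

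On 17 of the 335 members (5.07%) wild type 1 stood more than 1 log2 unit from the mean of wild types 2 and 3, which lay within 0.5 of each other, beside 1.46% of all probes tested. Of these 17 probes 10 belong to immune genes, and wild type 1 was lower on 14 and higher on 3. On 15 of them (88.2%) all 3 knockouts lay between the lowest and the highest wild type, as they did on 47.1% of the 1551 such probes of the whole array. Wild type 2 stood apart in the same sense on 0 members and wild type 3 on 0, beside 0.394% and 0.424% of all probes. Among the knockouts, knockout 1 stood apart on 3 members, knockout 2 on 2 and knockout 3 on 0, beside 2.96%, 0.457% and 0.430% of all probes. This way of looking was chosen after the values had been seen. Wild type 1 also had the most spots with outlier flags, which were set missing: 186, beside 13 to 36 on the other arrays.

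Lta, the cytokine lymphotoxin α, stood at −3.80, −0.05 and −0.30 in wild type and at −1.35, −1.37 and −1.26 in the knockout, and its other probe gave the same order: −3.87, −0.56 and −0.82 against −1.89, −1.69 and −1.62. The knockouts were nearly equal to each other and lay between wild type 1 and the other wild types. Group means hid this: they differed by 0.05 (SE 0.95) and 0.02 (SE 0.84). Hspa1b, an inducible HSP70 gene, had the same order on its brightest probe, with 1.15, 3.06 and 3.24 against 2.04, 2.42 and 2.30. The printed Hspa1b probe showed less of it, with −3.06, −2.07 and −2.23 against −2.50, −2.68 and −2.22.

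H2-Q10, a class I gene known for a secreted liver product, stood apart in wild type 1 on 4 of 5 probes. One stood at −6.26, −2.16 and −1.73 in wild type and at −2.13, −2.15 and −2.54 in the knockout. The printed H2-Q10 probe gave −0.84, 0.45 and 0.35 against −0.26, −0.21 and −0.0027. The printed circRNA probe, which shares its capitals, gave −1.86, −0.27 and −0.36 against −1.05, −1.10 and −0.998, while the printed H2-K1 probe gave −1.06, −0.57 and −0.76 against −0.83, −0.93 and −0.92. H2-Bl had the same pattern, at −3.52, −0.58 and −0.66 against −1.55, −2.37 and −2.26.

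In H2-Q1 the order was turned: 1 probe stood at −1.87 in wild type 1, at −7.11 and −6.32 in wild types 2 and 3, and at −4.05, −3.50 and −3.72 in the knockouts, while another probe of the gene stood between 2.56 and 3.02 on all arrays. Bag6, a chaperone gene that is no immune gene, showed the same split between probes. The first printed probe gave −2.90 in wild type 1 and −0.25 to 0.08 on the other 5 arrays, while the other printed probe stood between 4.89 and 5.22 throughout. So probes named for 1 gene could differ in how far wild type 1 lay from the other arrays. Whether such probes read the same transcript was not tested.

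**Figure D3:**
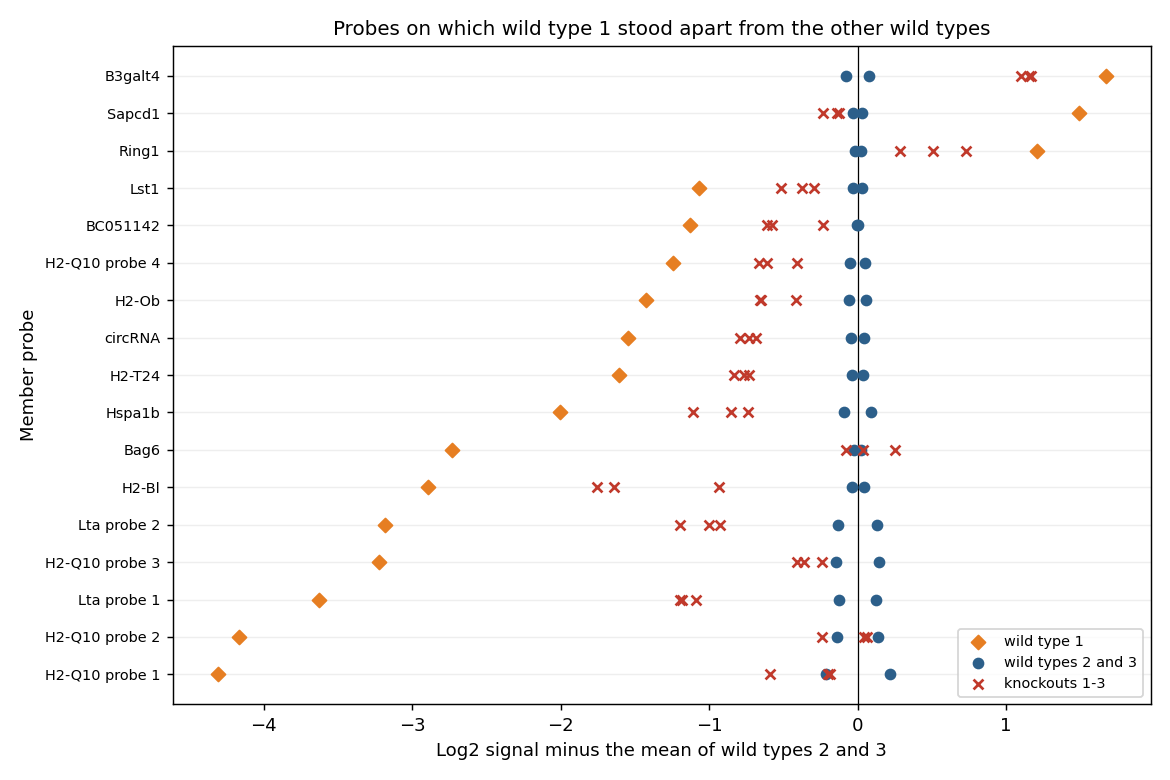
Signal of the 17 member probes on which wild type 1 stood apart, as log2 difference from the mean of wild types 2 and 3 (orange diamonds wild type 1, blue circles wild types 2 and 3, red crosses the knockouts). On 15 of 17 probes the 3 knockouts lie inside the range of the wild types, and on Lta they lie about 1 unit below wild types 2 and 3. Sapcd1 and Bag6 are the exceptions.

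Genes outside the interval that work with it were read as a list of 18. Cd74, the invariant chain of class II on another chromosome, stood at 3.86, 3.87 and 3.19 in wild type and at 2.39, 2.19 and 2.43 in the knockout. The groups did not overlap, and the difference was −1.30 (SE 0.20, −1.25 with the block). The cause of the lower Cd74 signal was not tested. Irf1, an interferon-response factor, differed by −0.31 (SE 0.09, −0.26 with the block) and B2m, the light chain of class I, by −0.20 (SE 0.09, −0.27 with the block), each without overlap of the groups. Ciita, the class II transactivator, differed by −0.45 (SE 0.36, −0.47 with the block) with overlap. The list's median was −0.11, with 12 of 18 below 0 and 6 above, and −0.11 with the block, with 14 below 0. Above 0 were Calr (0.11), Rfxank (0.09), Irf2 (0.04), Rfx5 (0.03), Canx (0.02) and Rfxap (0.02). Psmb10, an immunoproteasome subunit, differed by −0.0027 (0.12 with the block), and Nlrc5, the class I transactivator, by −0.27 (0.04 with the block).

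Markers of some other cells moved with the class II genes. All 7 tested markers of border macrophages (Mrc1, Cd163, Lyve1, Pf4, F13a1, Cbr2 and Ms4a7) were below 0, with a median of −0.65 (−0.92 with the block), and their summed linear signal was 5.53 to 6.68 in wild type and 3.29 to 4.96 in the knockout. Lyve1 and Ms4a7 were the dimmest, between −3.48 and −2.07. All 8 meningeal fibroblast markers were below 0 with a median of −0.42 (−0.70 with the block), and their sums were 34.01 to 50.7 and 26.9 to 34.7. Microglia markers had a median of −0.05 with 9 of 10 below 0 (−0.09 with the block), and sums of 109 to 120.3 and 104 to 121. Endothelial markers had a median of −0.02 with 4 of 7 below 0, and −0.12 with the block, with 6 below 0. Their sums were 69.0 to 76.0 against 59.4 to 65.5. Astrocyte markers had a median of −0.05 with 4 of 6 below 0, and −0.18 with the block, with 6 below 0. Their sums were 296 to 310.1 against 277 to 295.9. Neither the endothelial nor the astrocyte sums overlapped between groups, but each sum is weighted to its brightest gene. These genes, Ly6c1 (−0.36, −0.31 with the block) and Slc1a2 (−0.11, −0.07 with the block), were the only ones of their lists without overlap of the groups. In bulk tissue fewer cells of a type and less RNA per cell cannot be told apart, and the part of any of these cells in the class II difference was not tested.

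Dendritic cell markers had a median of −0.42 with 5 of 6 below 0, but −0.09 with the block, and lymphocyte markers −0.29 with 7 of 8 below 0, but −0.08. Their summed signals were 3.86 to 4.31 against 2.92 to 3.71 for dendritic cells and 10.5 to 11.2 against 7.65 to 9.48 for lymphocytes. The 5 red cell markers were all above 0, with a median of 0.53 (0.30 with the block) and sums of 625 to 811 against 839 to 991. Choroid plexus markers had a median of 0.04 with 3 of 6 below 0, but −0.32 with the block, with 6 below 0. Oligodendrocyte markers had a median of 0.02 (−0.12 with the block) and neuron markers 0.02 (−0.03 with the block). Over all genes the median with the block was −0.058, so most of these lists fell with it.

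**Figure D4:**
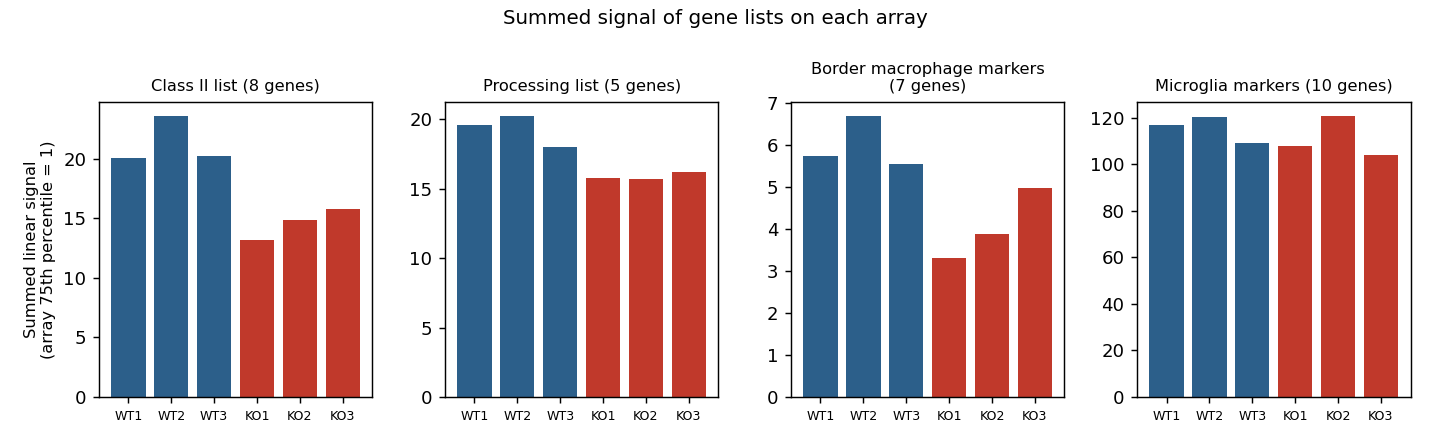
Summed linear signal on each array (WT wild type, KO knockout; the array's 75th percentile is 1) of the tested class II and processing genes and of markers of border macrophages and microglia. Class II sums are 20.1 to 23.6 in wild type and 13.1 to 15.8 in the knockout, and the border macrophage sums separate the groups too, while the microglia sums overlap.

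Promoters are shown for 4 of the genes that were lower on all their probes. RefSeq promoter sequences of build GRCm38.p6 were matched by symbol for 98 genes of the interval, and the 250 bases before the start were searched on both strands for 4 motifs. These were GAAANNGAA (the core of the interferon-stimulated response element, whose GAA ends can overlap the next motif), TTCNNNGAA (the gamma-activated site), ATTGG (the Y box core of MHC promoters, also a general CCAAT box) and TGACNNNGC (the antioxidant response element core that Nrf2 binds). No 2 motif matches overlapped in the printed sequences. H2-Aa lies at chr17:34287824-34288073 on the minus strand, Psmb8 at chr17:34197945-34198194 on the plus strand, Tap1 at chr17:34187306-34187555 on the plus strand, and H2-K1 at chr17:34000348-34000597 on the minus strand. Capitals mark the matches.
H2-Aa: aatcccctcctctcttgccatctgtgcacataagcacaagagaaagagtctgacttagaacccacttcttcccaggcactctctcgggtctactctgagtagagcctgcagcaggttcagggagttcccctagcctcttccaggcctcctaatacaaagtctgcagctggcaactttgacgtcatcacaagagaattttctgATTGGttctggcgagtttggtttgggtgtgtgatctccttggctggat
Psmb8: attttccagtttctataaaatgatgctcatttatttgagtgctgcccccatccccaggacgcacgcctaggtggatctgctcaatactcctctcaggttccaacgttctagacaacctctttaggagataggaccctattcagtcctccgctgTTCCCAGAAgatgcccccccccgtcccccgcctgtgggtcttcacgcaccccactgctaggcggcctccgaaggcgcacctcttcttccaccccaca
Tap1: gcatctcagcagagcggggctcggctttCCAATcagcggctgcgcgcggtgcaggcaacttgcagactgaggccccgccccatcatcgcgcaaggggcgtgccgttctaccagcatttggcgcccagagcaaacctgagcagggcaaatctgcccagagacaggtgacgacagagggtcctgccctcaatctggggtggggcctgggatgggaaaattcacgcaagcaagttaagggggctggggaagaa
H2-K1: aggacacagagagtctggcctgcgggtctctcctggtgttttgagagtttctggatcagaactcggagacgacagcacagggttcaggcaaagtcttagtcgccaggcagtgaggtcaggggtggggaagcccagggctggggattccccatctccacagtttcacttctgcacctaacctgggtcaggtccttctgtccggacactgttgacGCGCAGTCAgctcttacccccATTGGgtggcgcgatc

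H2-Aa has its ATTGG 44 to 48 bases before the start, and H2-K1 has one 12 to 16 bases before. Tap1 holds it on the other strand, as CCAAT, in a stretch that it shares with Psmb9, whose start lies 226 bases away. Among 27 immune genes with a promoter sequence 16 held ATTGG, beside 24 of 69 non-immune neighbours and 33.8% of all 32851 promoters of that length. TGACNNNGC stood in 4 immune genes (H2-K1, H2-Q10, H2-T22 and Lta), in 5 neighbours and in 3338 of all promoters. GAAANNGAA stood in 3 immune genes (Aif1, H2-T22 and H2-T23), 5 neighbours and 7.13% of all promoters, and TTCNNNGAA in 3 immune genes (Lta, Ltb and Psmb8), 4 neighbours and 7.02%. A match is a run of letters and not a measured binding site, and no binding was measured in these samples.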

How the data were processed

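Total RNA was labelled with Cy3 and hybridised to Agilent arrays, 1 sample each, per the labels' protocols. The deposited scanner files hold the intensity of each spot on a linear scale, and per the file headers they come from Feature Extraction 12.0.3.1. The submitters' processing notes give version 10.7 of that program, and limma. The authors' deposited value table follows log2 of the scanner signal (r of at least 0.99986 on each array) and served as an alternative only. Its columns have medians of 5.59, and its normalisation is given in no source used here.

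Control spots were left out, spots with outlier flags were set missing, and each array's 75th percentile was subtracted from log2 of the processed signal. The scanner called 71.0 to 73.4% of probes well above background, and 3 arrays per group limit the precision. The fit was limma 3.58.1 in R 4.3.3 (lmFit, eBayes), adjusted by Benjamini-Hochberg over all probes tested, and was tested on simulated data. Errors are limma's standard errors (SE). A gene is represented by its tested member probe of the highest mean. Of the 295 linear members 291 took their symbol from RefSeq by accession, and circRNA names were read as GRCm38 positions because 97.3% of all such names fell within GRCm38 coding genes, and 35.9% once shifted by 1 Mb. Slides were inferred from the scans the headers name.

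The members, gene lists and marker lists were chosen with earlier results of these data known. The genes named are those of the immune and heat-shock lists, the 6 highest, 6 lowest and 4 brightest neighbours, the extreme non-coding and circRNA probes and the partners outside. Alternatives were other normalisations, filters and slide or replicate blocks, each array left out, and the median of a gene's probes.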

Additional observations from a re-analysis of the deposited data

How the results depend on the processing

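The immune median kept its sign under each alternative run. It was −0.17 after quantile normalisation, after normexp and in the authors' value table, and ranged from −0.32 (without wild type 1) to −0.11 (without wild type 2) when 1 array was left out. Of 34 immune genes below 0, 22 were below 0 under every alternative that gave them a value. The neighbours' median was −0.0086 with slide as a block and −0.0071 on slide 1 only, against 0.042, and ranged from 0.029 to 0.085 with 1 array left out. The count of called members was 0 in limma under every alternative except without knockout 1, where it was 24 (range 0 to 24). The group sharing of replicate numbers gave no pairing: deviations of same-numbered arrays correlated at −0.01, −0.05 and 0.04, and the replicate block left 0 called members and medians of −0.18 and 0.046 (79 neighbours with a value). Single genes moved by more than the spread between arrays in 69 of 867 recomputed values. Added after the data were seen, moving 3 class I-like genes (H2-M10.2, H2-T-ps, Gm11127) to the immune list gave −0.17 and 0.046, and dropping genes with a probe on which wild type 1 stood apart gave −0.20 and 0.050. Dim probes (Tnf, Cfb, H2-Oa, C4a, H2-M10.2) and class I paralogs are the least certain values.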
